A study of Homo sapiens with 12 samples.

Results

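The unfolded protein response and the integrated stress response are represented here by 37 genes, listed by symbol and matched through their Ensembl identifiers to 60660 gene identifiers. All 37 were found and all 37 passed the filter on low counts. They comprise 19 genes of an ATF4 arm, 14 genes of an endoplasmic reticulum (ER) chaperone arm and 4 transducers of the unfolded protein response. Their RNA was counted in HS578T, a triple-negative breast cancer line in long use, as named on the labels of 12 libraries in 4 groups of 3.

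Unfolded protein in the ER activates the sensors IRE1 (gene ERN1), PERK (EIF2AK3) and ATF6. PERK, like the other eIF2 kinases, phosphorylates eIF2, which lowers translation in general and raises translation of the factor ATF4, whose targets include CHOP (DDIT3), amino acid synthesis and transport genes and feedback regulators. ATF6 and the spliced form of XBP1, the product of IRE1, raise ER chaperones and degradation factors. Because ATF4, IRE1, PERK and ATF6 are controlled largely at the level of protein, RNA amounts describe the genes and not the activity of these proteins, and counts per gene do not separate spliced from unspliced XBP1.

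The groups were cells with an intact short arm of chromosome 17 (17p), titled Cas9, and cells with a labelled loss of 1 copy of 17p, titled 17PKO, each grown for 48 h in vehicle (DMSO) or in doxorubicin, an anthracycline that poisons DNA topoisomerase. They are called intact and deleted cells below, after their labels. Intact cells received 170 nM and deleted cells 1 µM doxorubicin, a ratio of 5.88, so genotype and dose change together in every comparison that involves both treated groups. The labels do not say whether either population was 1 clone, nor whether a group's libraries are separate cultures. P-values therefore measure the spread between these libraries, which may be technical.

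Total counts ran from 66150539 to 99142099 per library, so that 3 counts stood for 0.0303 to 0.0454 CPM (counts per 1000000). In DMSO the median log2 difference of deleted less intact cells was -0.12 over 399 genes of 17p (starting before 23 Mb), -0.24 over 974 genes of the long arm 17q and 0.05 over all genes of other chromosomes. The 9 mesenchymal markers summed to 8329 to 8782 CPM in intact DMSO libraries and 5668 to 6178 in deleted DMSO. In doxorubicin they summed to 7252 to 7498 in intact and 3677 to 3712 in deleted cells. Most of the sum came from VIM, COL1A1, FN1 and SPARC (2472, 2315, 2087 and 1234 CPM on average in intact DMSO). By contrast, COL1A2 and COL3A1 had group means of at most 1.6 CPM, and S100A4 of at most 8.89. The part of the difference between groups in the results below was not tested. The 8 epithelial markers summed to 385 to 620.3 CPM per library, nearly all of it from the keratins KRT8 (group means of 302 to 363 CPM) and KRT18 (157 to 222), while EPCAM and CDH1 had group means of at most 0.335 CPM, and the part of these genes in the results was not tested. The 7 blood cell markers summed to at most 1.47 CPM in any library. In a check for mixed-up samples, 12 of 12 libraries failed to match what is on record for HS578T. Only the number of libraries past a single cutoff was kept, so the check does not by itself settle the identity of the line. Replicate 2 of deleted DMSO (6.9%) and replicate 1 of intact doxorubicin (5.54%) had the highest shares of mitochondrial counts, against 2.61% to 3.57% elsewhere, and the deviations of their genes from the group mean ran with transcript GC content (Spearman rho -0.501 and -0.437 across genes). Trends of like size and opposite sign stood in libraries of lower mitochondrial share, at 0.474 in replicate 2 of intact doxorubicin and 0.349 and 0.426 in replicates 1 and 3 of deleted DMSO, and deviations within a group sum to 0. Among the stress genes, replicate 2 of deleted DMSO stood low for SLC3A2 (72.8 CPM against 127 and 124) and PHGDH (82.0 against 136 and 134) and high for XPOT (781 against 631 and 561) and HSP90B1 (965 against 753 and 736). The part of the 2 libraries of highest mitochondrial share in the results was examined by leaving them out and by removing the GC trend. As the samples are bulk, fewer cells of a kind and less RNA per cell cannot be told apart.

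The genes were listed by symbol and not by promoter sequence. As ER chaperones are known to be raised by ATF6 and XBP1, the list is still not independent of promoter elements shared by such genes. Promoter windows from 250 bases before to 50 bases after an annotated start were taken from RefSeq (GRCh38.p14), for 35 of the 37 genes, SHMT2 and NUPR1 having none. A gene had 1 to 4 windows, all of which were searched, and it was counted as holding an element where any of them did. The ER stress element was searched on both strands as CCAAT, any 9 bases and CCACG. It was present in 6 of 14 chaperone arm genes (42.9%), in XBP1 and in 0 of 17 ATF4 arm genes with a window, against 25 of 27305 genes with a window (0.0916%) and 21 of 15843 protein-coding genes (0.133%). The matches are shown with their flanks, 5′ to 3′ on the strand of the gene, with the element in capitals, because the element is rare among all genes and was found here in part of the chaperone arm, with 8 of its 14 genes lacking it; the difference between the arms was not tested.

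HSPA5, chr9:125241376-125241424, minus strand: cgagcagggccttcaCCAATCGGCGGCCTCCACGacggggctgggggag
PDIA6, chr2:10812838-10812886, minus strand: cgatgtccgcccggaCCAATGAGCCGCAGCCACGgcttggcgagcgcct
CALR, chr19:12938369-12938417, plus strand: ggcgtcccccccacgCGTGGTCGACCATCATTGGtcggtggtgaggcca
CANX, chr5:179698763-179698811, plus strand: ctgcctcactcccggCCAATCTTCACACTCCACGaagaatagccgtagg
CRELD2, chr22:49918539-49918587, plus strand: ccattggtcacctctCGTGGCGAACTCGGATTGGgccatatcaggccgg
XBP1, chr22:28800588-28800636, minus strand: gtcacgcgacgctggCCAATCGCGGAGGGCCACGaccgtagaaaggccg
HSP90B1, chr12:103930201-103930354, plus strand: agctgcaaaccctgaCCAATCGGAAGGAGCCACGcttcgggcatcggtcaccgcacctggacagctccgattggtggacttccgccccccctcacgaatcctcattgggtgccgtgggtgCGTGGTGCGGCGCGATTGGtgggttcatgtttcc

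In CALR, CRELD2 and the second match of HSP90B1, the element lay on the opposite strand, so the capitals read CGTGG, 9 bases and ATTGG. HSPA5, the most studied ER chaperone, held its match 66 to 48 bases before the start. The second ER stress element, ATTGG, 1 base and CCACG on either strand, was found in HERPUD1, SDF2L1 and HYOU1, 3 of 14 chaperone arm genes (21.4%) and 0 of 17 ATF4 arm genes, against 19 of 27305 genes (0.0696%). DNAJB9, DNAJC3, SEL1L, PDIA4 and MANF held neither element.

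HERPUD1, chr16:56931951-56932050, plus strand: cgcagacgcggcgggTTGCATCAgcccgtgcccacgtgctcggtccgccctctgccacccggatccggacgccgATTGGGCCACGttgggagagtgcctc
SDF2L1, chr22:21642099-21642139, plus strand: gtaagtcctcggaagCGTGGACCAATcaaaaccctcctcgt
HYOU1, chr11:119057259-119057405, minus strand: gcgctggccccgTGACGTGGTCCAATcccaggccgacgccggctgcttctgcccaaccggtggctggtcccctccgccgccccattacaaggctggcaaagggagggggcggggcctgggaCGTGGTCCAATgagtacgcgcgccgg

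The HYOU1 window holds this element at 2 places, and the first overlaps a match of the unfolded protein response element TGACGTGG, which was searched on both strands and occurred in 0.927% of all genes with a window. HERPUD1 in addition holds the element bound by ATF4 with a C/EBP partner, TGATGNAA, here in its reverse complement. That element occurred in 4 of 17 ATF4 arm genes (23.5%), CHAC1, ASNS, CEBPG and SLC3A2, and in 1 of 14 chaperone arm genes, against 4.46% of all genes with a window and 3.6% of protein-coding genes. It is shown for those that carry it before the start.

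CHAC1, chr15:40953247-40953284, plus strand: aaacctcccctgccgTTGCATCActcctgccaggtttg
ASNS, chr7:97872454-97872491, minus strand: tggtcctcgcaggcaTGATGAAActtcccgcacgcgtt
CEBPG, chr19:33374056-33374093, plus strand: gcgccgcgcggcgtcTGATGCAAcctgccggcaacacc

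**Figure D1:**
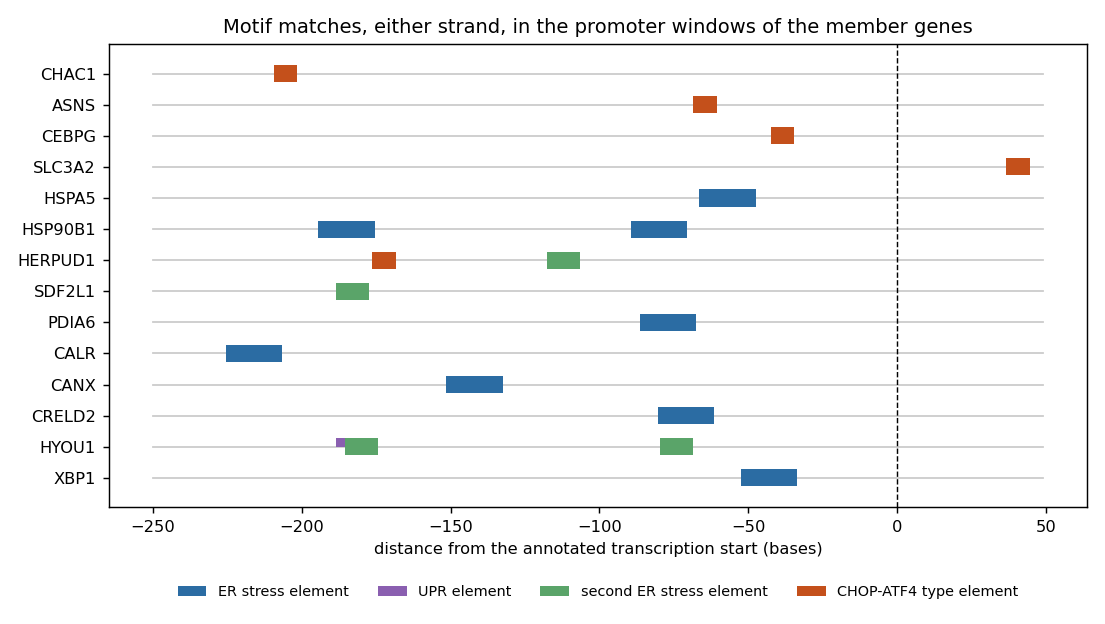
Position of each motif match in the promoter windows of the 14 genes that held one; the x axis is the distance from the annotated start in bases, grey lines are the windows and bars the matches, coloured by motif. ER stress elements lie in 9 of 14 chaperone arm genes and XBP1, and the ATF4 type element mostly in ATF4 arm genes; in SLC3A2 it lies after the start.

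A match is a description of these letters in these windows, and no match says nothing of the factor. DDIT3, PSAT1 and STC2, among the genes whose RNA moved most below, had none of the 4 motifs in any of their windows.

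In level, the chaperone genes were the most abundant. Per kilobase of exon in intact DMSO cells, CALR stood highest at 484 CPM per kilobase, followed by CANX at 220.1, HSPA5 at 219.8 and HSP90B1 at 159.7. PSAT1 (113) and then ATF4 led the ATF4 arm. Other chaperone arm genes stood well below these, down to HERPUD1 at 5.58 and DNAJB9 at 4.28. At the other end ERN1 was at 1.06, CHAC1 at 0.661, VLDLR at 0.346, NUPR1 at 0.171 and ASNS at 0.133 CPM per kilobase. ASNS, the asparagine synthetase often used as an ATF4 readout, thus lay at 0.384 to 1.12 CPM in every library, and 44.6% of its annotated exon bases are shared with another gene on the same strand, so its counts are uncertain. The strand setting of the counting is not given in the sources used here, which leaves DDIT3 (27.2% of exon bases opposite MARS1), DDIT4 (41.2% opposite DDIT4-AS1), MTHFD2 (27.2% opposite SLC4A5) and PDIA6 (25.2% opposite ATP6V1C2) uncertain to that extent.

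The first comparison asked what 170 nM doxorubicin did to these genes in intact cells. None of the 37 passed the threshold of an adjusted p of 0.05 by edgeR's quasi-likelihood test with Benjamini-Hochberg adjustment over 21803 genes, where 0.0596% of all genes passed (0.0275% higher and 0.0321% lower). At an unadjusted p under 0.05 there were 4 of the 37, STC2, NUPR1, PPP1R15A and EIF2AK3, beside 2504 of all 21803 genes, a like share. DESeq2 called 2 of the 37, STC2 at a log2 change of -0.40 (adjusted p = 0.0216) and NUPR1 at -0.88 (adjusted p = 0.0397). Over all 21803 genes DESeq2 called 253 higher and 214 lower, more than edgeR did. Levels of the central genes lay close together. HSPA5 was at 855, 865 and 856 CPM in DMSO and 859.7, 899 and 824 in doxorubicin. DDIT3 was at 6.9, 7.4 and 7.46 CPM against 8.08, 9.09 and 6.11. In both genes the groups overlapped. Of the 37, 4 lay with every treated library above every control and 5 below, against 10.7% and 8.67% of all genes. The median log2 change was -0.03 over the ATF4 arm, 0.05 over the chaperone arm and 0.01 over all genes tested. EIF2AK3, which encodes PERK, was at 34.7, 36.5 and 38.6 CPM in DMSO and 48.3, 43.5 and 47.8 in doxorubicin, without overlap, but its log2 change of 0.35 (SE 0.10) had an adjusted p of 0.222 by edgeR.

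The second comparison was 1 µM doxorubicin against DMSO in deleted cells, and here the genes moved in both directions. Of the 37, 7 rose and 14 fell, so 56.8% passed the threshold where 30.7% of all genes did (17.5% higher and 13.1% lower). ERN1, DDIT3, DDIT4, NUPR1, PPP1R15A, CEBPB and DNAJB9 rose. The amino acid and tRNA genes PSAT1, XPOT, PHGDH and SHMT2 fell, as did the chaperones HSPA5 and HSP90B1, and ATF4 itself. Every treated library lay above every control for 11 genes and below for 14, against 24.6% and 20.7% of all genes. The median log2 change was -0.25 over the ATF4 arm, -0.16 over the chaperone arm and -0.02 over all genes tested. Without the 2 libraries of highest mitochondrial share, 6 rose and 9 fell in the ATF4 arm and 1 rose and 4 fell in the chaperone arm. In that fit 4257 of 22496 genes rose and 3655 fell, against 3822 and 2862 of 21803 with all libraries.

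**Figure D2:**
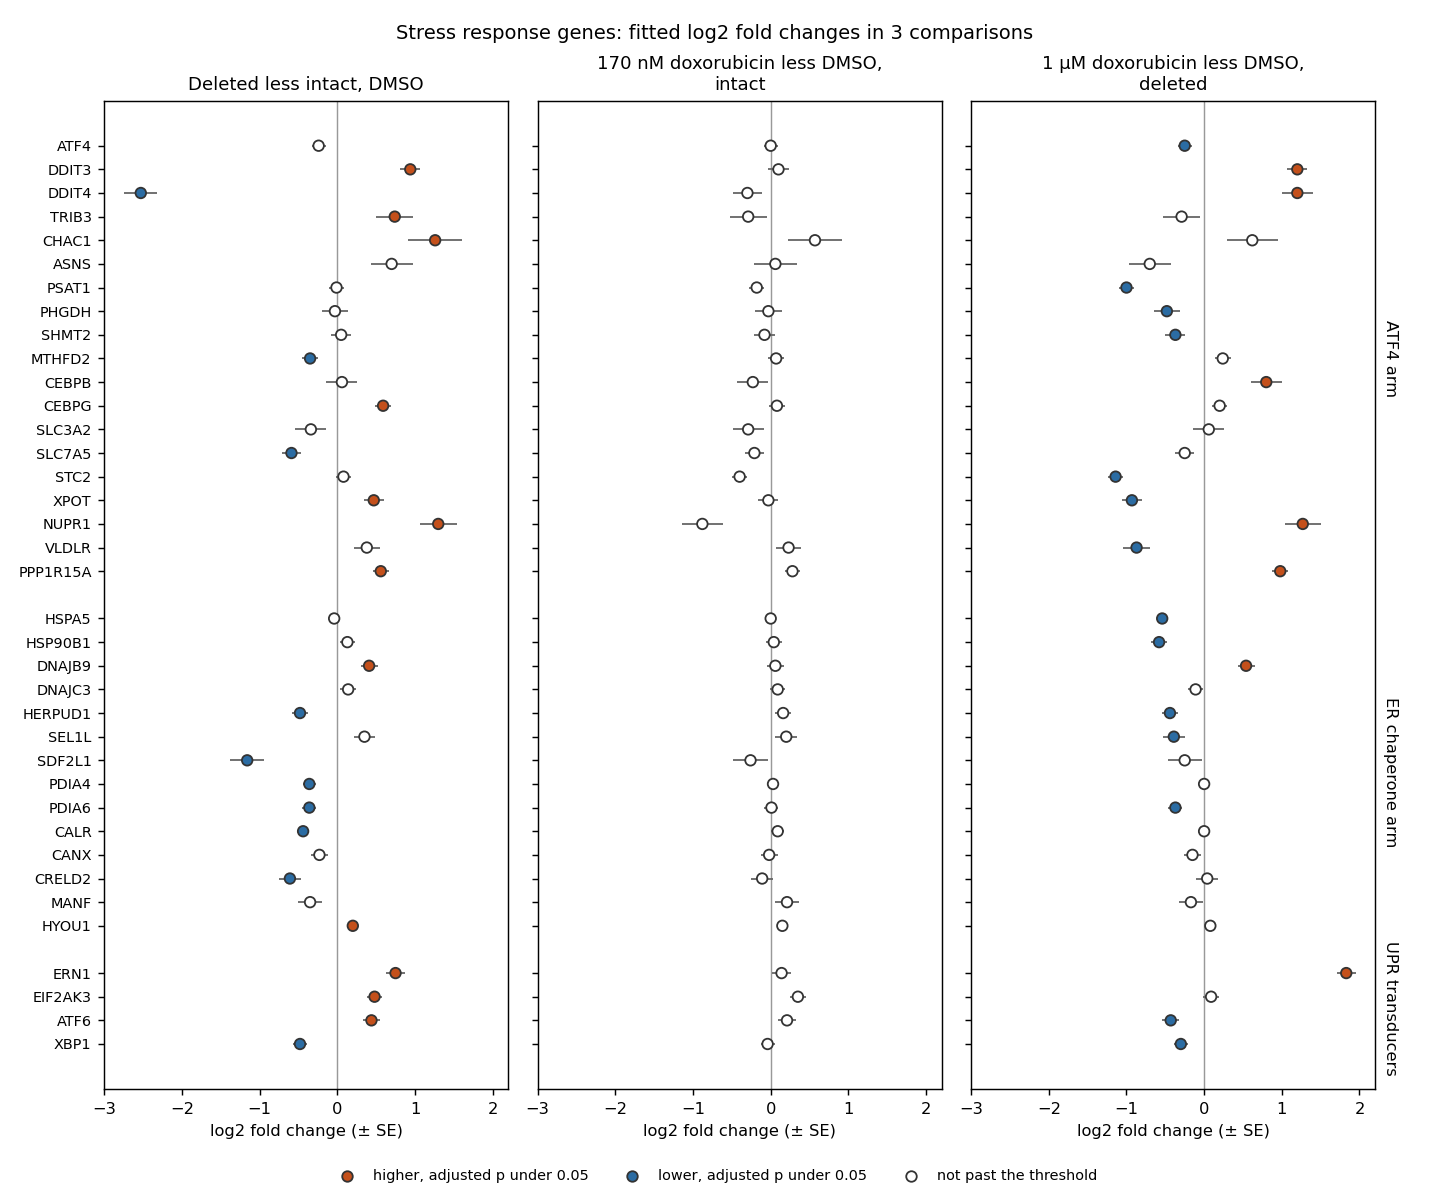
Fitted log2 fold change of each of the 37 genes in 3 comparisons (x axis, bars are ± SE, 3 libraries a group), by arm; filled points passed an adjusted p of 0.05 by edgeR. All 37 points are open for intact cells in 170 nM doxorubicin, and in deleted cells in 1 µM the changes run from -1.14 (STC2) to 1.83 (ERN1).

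Among the transducers, ERN1 showed the largest rise of the 37. It encodes IRE1, the ER sensor with kinase and ribonuclease activity (ENSG00000178607.16, hg38 chromosome 17, 64039142 to 64130819, on 17q). ERN1 was at 11.1, 13.1 and 10.2 CPM in intact DMSO, 20.7, 18.3 and 18.7 in deleted DMSO, 13.7, 11 and 13.1 in intact doxorubicin and 70.3, 66.2 and 68.1 in deleted doxorubicin. The deleted doxorubicin libraries thus stood far above all others, while the deleted DMSO libraries stood above both intact groups. In deleted cells the rise was 3.55-fold (log2 change 1.83, SE 0.12, adjusted p = 6.52e-08 by edgeR). Genes of 17q had a median log2 change of 0.02 in this comparison.

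XBP1, whose transcript IRE1 cleaves, moved the other way. Its levels were 79.5, 76.9 and 76.6 CPM in deleted DMSO and 66.7, 62.1 and 60.6 in deleted doxorubicin, without overlap, and the log2 change was -0.30 (SE 0.09, adjusted p = 0.0184 by edgeR). This call was kept under 15 of 21 alternatives and was lost without replicate 1 of deleted DMSO or replicate 2 or 3 of deleted doxorubicin. ATF6, the sensor that is cleaved to a transcription factor, fell by 0.43 on the log2 scale (SE 0.11, adjusted p = 0.00814 by edgeR), from 77, 90.8 and 71.7 CPM to 59.4, 58.6 and 60.2. EIF2AK3 did not pass the threshold, at 0.09 (SE 0.10, adjusted p = 0.582 by edgeR).

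Within the ATF4 arm the regulators and feedback genes parted from the metabolic genes. Of 9 regulators and feedback genes, 5 rose and 1 fell, with a median log2 change of 0.80. Of 8 amino acid, one-carbon and tRNA genes, 0 rose and 4 fell, with a median of -0.43. Of these 4, PHGDH and SHMT2 were each kept under only 9 of 21 alternatives. Over all genes tested 17.5% rose and 13.1% fell. Both other genes of the arm, STC2 and VLDLR, fell. The members were divided by role with earlier results of these data known, so the split is a description.

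DDIT3 encodes CHOP, a factor linked to cell death in prolonged ER stress (ENSG00000175197.12, chromosome 12, 57516588 to 57521737). Its levels were 13.3, 13.3 and 15.2 CPM in deleted DMSO and 32.9, 31.9 and 31.5 in deleted doxorubicin. The groups did not overlap, and the rise was 2.3-fold (log2 change 1.20, SE 0.13, adjusted p = 9.7e-06 by edgeR). MARS1, whose exons overlap DDIT3 on the opposite strand, went the other way, at -0.59 (adjusted p = 0.00041 by edgeR).

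PPP1R15A encodes GADD34, the phosphatase subunit that reverses eIF2 phosphorylation (ENSG00000087074.8, chromosome 19, 48872392 to 48876057). It rose from 125, 137 and 119 CPM to 235, 277 and 242, a 1.98-fold difference with no overlap (log2 change 0.98, SE 0.10, adjusted p = 3.73e-06 by edgeR). NUPR1, a small stress-induced nuclear protein, was at 2.52, 1.86 and 2.75 CPM and at 5.3, 6.03 and 5.86 CPM, and rose 2.41-fold (adjusted p = 0.000755 by edgeR). DDIT4 encodes REDD1, an inhibitor of mTORC1. It rose 2.29-fold, from 4.94, 3.28 and 5.81 CPM to 12.6, 9.79 and 9.89 (adjusted p = 0.000491 by edgeR), yet stayed below the intact DMSO libraries, at 25.7, 25.9 and 29.4. CEBPB, a bZIP factor that can pair with CHOP and ATF4, rose by 0.80 on the log2 scale (SE 0.20, adjusted p = 0.00794 by edgeR).

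In the list of regulators and feedback genes, TRIB3, CHAC1 and CEBPG did not pass the threshold, at -0.29, 0.62 and 0.20. TRIB3, a pseudokinase that damps ATF4, was at 29.7, 14.1 and 24.3 CPM in deleted DMSO, with the low value in the library of high mitochondrial share. Without the 2 libraries of highest mitochondrial share its log2 change was -0.55 (adjusted p = 0.00553 by edgeR) and that of CEBPG 0.27 (adjusted p = 0.0449). ATF4 fell from 234, 210.1 and 213 CPM to 186, 186 and 179, without overlap. Its log2 change of -0.25 (SE 0.09) was close to the threshold (adjusted p = 0.0465 by edgeR) and was kept under 7 of 21 alternatives. It was lost on leaving out 9 of the 12 libraries in turn, though not on leaving out replicate 2 of deleted DMSO.

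**Figure D3:**
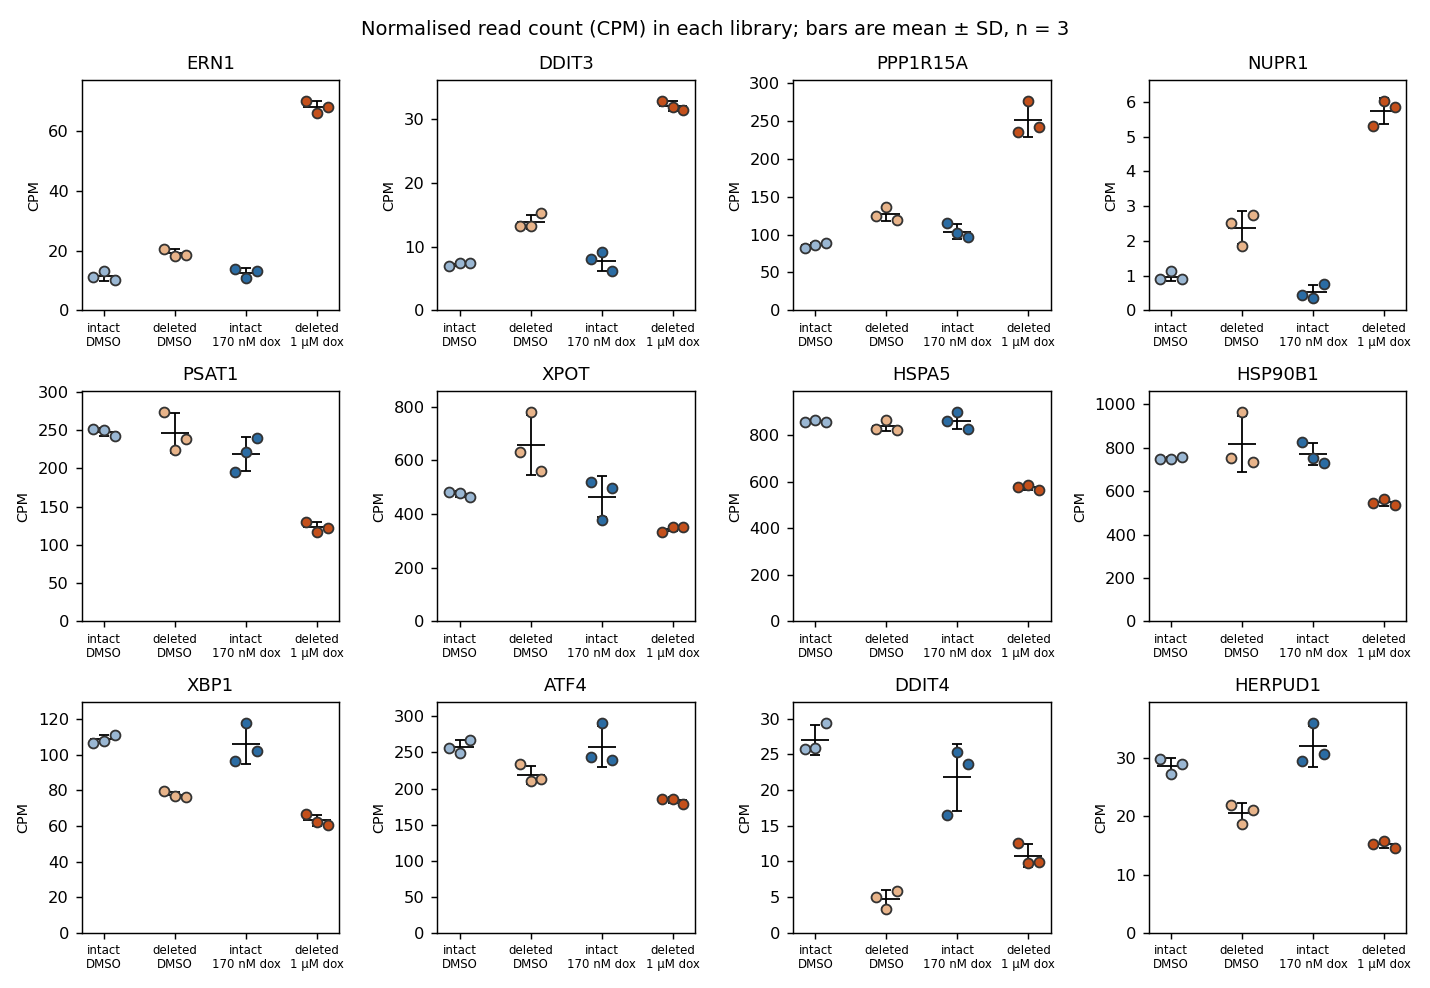
CPM of 12 of the genes in every library (y axis from 0; x axis, the 4 groups); points are libraries, bars mean ± SD, n = 3. ERN1 and DDIT3 are highest in deleted doxorubicin, PSAT1, HSPA5 and HERPUD1 are lowest there, and DDIT4 is low in both deleted groups.

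The metabolic genes of the arm fell or did not pass. PSAT1, the aminotransferase of serine synthesis (ENSG00000135069.14, chromosome 9, 78297143 to 78330093), was at 274, 224 and 239 CPM in deleted DMSO and 130.2, 117 and 122 in deleted doxorubicin. The groups were far apart, and PSAT1 was 1.99-fold lower (log2 change -1.0, SE 0.10, adjusted p = 4.26e-06 by edgeR). XPOT, which exports tRNA from the nucleus (ENSG00000184575.12, chromosome 12, 64404350 to 64451127), was at 631, 781 and 561 CPM against 335, 353 and 351. It fell by 0.93 on the log2 scale (SE 0.13, adjusted p = 9.7e-05 by edgeR), and by 0.79 without the 2 libraries of highest mitochondrial share. PHGDH and SHMT2, enzymes of serine and glycine metabolism, fell by 0.48 and 0.37 (adjusted p = 0.0435 and 0.04 by edgeR). Each was kept under 9 of 21 alternatives and lost on leaving out 9 of the 12 libraries in turn, and without the 2 libraries of highest mitochondrial share they fell by 0.69 and 0.53 (adjusted p = 3.07e-06 and 4.89e-05).

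MTHFD2, a mitochondrial folate enzyme and the most abundant gene of the arm that did not pass, was at 239, 226 and 199 CPM and 272, 256 and 258 (log2 change 0.24, adjusted p = 0.0929 by edgeR). The subunits of an amino acid exchanger, SLC3A2 and SLC7A5, were at 0.06 and -0.25 and overlapped between the groups. ASNS was at -0.70 (SE 0.27, adjusted p = 0.0667). STC2, a secreted glycoprotein and ATF4 target, fell from 85.2, 72.1 and 77.9 CPM to 36.4, 36.5 and 33.6 (log2 change -1.14, SE 0.10, adjusted p = 1.4e-06 by edgeR). VLDLR, a lipoprotein receptor, fell by 0.87 (adjusted p = 0.00128) at low counts, from 4.82, 4.29 and 3.5 CPM to 1.97, 2.76 and 2.16.

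In the chaperone arm 1 of 14 genes rose, 5 fell and 8 did not pass. HSPA5 encodes BiP, the ER HSP70 that holds the sensors inactive (ENSG00000044574.8, chromosome 9, 125234853 to 125241330). It was at 825, 862 and 823 CPM in deleted DMSO and 576, 587 and 565 in deleted doxorubicin. All treated libraries lay below all controls, and HSPA5 was 1.45-fold lower (log2 change -0.54, SE 0.07, adjusted p = 6.54e-05 by edgeR). HSP90B1, the ER HSP90 (ENSG00000166598.15, chromosome 12, 103930107 to 103953645), fell from 753, 965 and 736 CPM to 545, 564 and 534 (log2 change -0.58, SE 0.10, adjusted p = 0.000681 by edgeR). It fell by 0.45 without the 2 libraries of highest mitochondrial share.

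HERPUD1, a scaffold of ER-associated degradation, fell by 0.44 (adjusted p = 0.00588 by edgeR), from 22, 18.7 and 21.1 CPM to 15.3, 15.7 and 14.6. PDIA6, a disulfide isomerase, fell by 0.37 (adjusted p = 0.00803). SEL1L, a partner of the ligase HRD1, fell by 0.39 (adjusted p = 0.0481), a call kept under 9 of 21 alternatives. It was lost on leaving out 9 of the 12 libraries in turn, replicate 2 of deleted DMSO among them. DNAJB9, a BiP co-chaperone, was the single one that rose, from 16.8, 15.9 and 15.7 CPM to 24.7, 21.8 and 23.8 (log2 change 0.54, SE 0.11, adjusted p = 0.00198 by edgeR). The abundant lectin chaperones did not pass the threshold. CANX was at 1143, 1300.5 and 1069 CPM against 1072, 1029.8 and 1065 (log2 change -0.15, SE 0.11), and CALR at 944, 1015 and 953 against 941, 1001 and 966 (log2 change 0.00, SE 0.08). The 7 genes with the first ER stress element are 6 of the chaperone arm and the transducer XBP1. Of these 7, 4 fell, XBP1 among them, and 0 rose in this comparison. Of the 8 chaperone arm genes without the element 2 fell and 1 rose.

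The scores of the arms in each library put these genes on 1 scale. A score was the mean of log2(CPM + 1) over a list, relative to intact DMSO. In deleted doxorubicin the regulators and feedback genes were at 0.83, 0.76 and 0.73, the amino acid, one-carbon and tRNA genes at -0.44, -0.46 and -0.43, and the chaperone arm at -0.36, -0.34 and -0.37. The 19 genes of the ATF4 arm together were at only 0.13, 0.11 and 0.08, since the regulators and the metabolic genes lay on opposite sides of 0. These scores hold the genotype difference as well as the drug, because they are relative to intact DMSO. In deleted DMSO the regulators and feedback genes had a mean of 0.19 ± 0.17 (SD, n = 3). The amino acid, one-carbon and tRNA genes were at -0.08 ± 0.17 there, and the chaperone arm at -0.20 ± 0.05. The ATF4 arm less the chaperone arm was 0.49, 0.45 and 0.46 in deleted doxorubicin, 0.42, 0.05 and 0.35 in deleted DMSO, and -0.27, -0.04 and -0.04 in intact doxorubicin. The low value in deleted DMSO and the lowest in intact doxorubicin belonged to the libraries of highest mitochondrial share. Without those libraries the means were 0.39 in deleted DMSO and -0.04 in intact doxorubicin, against 0.27 ± 0.20 and -0.12 ± 0.13 (SD, n = 3) with them.

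**Figure D4:**
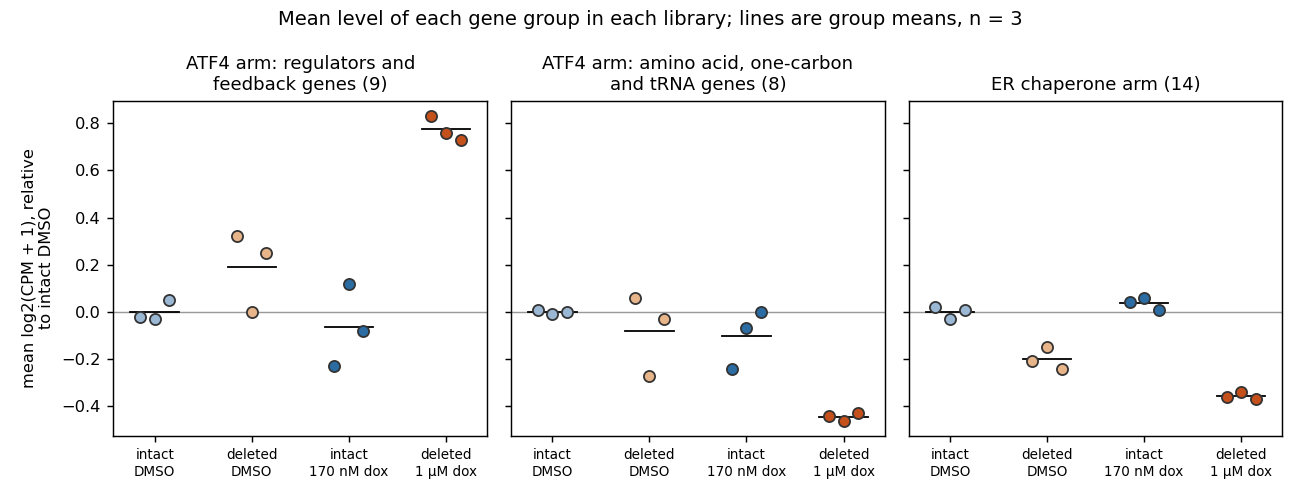
Mean log2(CPM + 1) of 3 gene groups in each library, relative to the intact DMSO mean (y axis; x axis, the 4 groups); points are libraries and lines group means, n = 3. In deleted doxorubicin the regulators lie at 0.73 to 0.83, while the metabolic genes and the chaperones lie at -0.46 to -0.34. In deleted DMSO the means of the regulators, metabolic genes and chaperones are 0.19, -0.08 and -0.20.

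The third comparison, deleted against intact cells in DMSO, already separated many of the genes. Of the 37, 12 were higher and 10 lower in deleted cells, 59.5% against a background of 34.9% (18.8% higher and 16.2% lower). In the ATF4 arm 7 were higher and 3 lower, in the chaperone arm 2 were higher and 6 lower, and of the transducers 3 were higher and 1 lower. The libraries of the genotypes did not overlap for 14 genes that were higher and 13 that were lower, against 25.7% and 23.9% of all genes. Median log2 differences were 0.08 for the ATF4 arm, -0.29 for the chaperone arm and 0.04 for all genes tested. Without the 2 libraries of highest mitochondrial share the counts were 7 higher and 4 lower in the ATF4 arm and 1 higher and 8 lower in the chaperone arm. In that fit 4093 of 22496 genes were higher and 4186 lower, against 4092 and 3526 of 21803 with all libraries.

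DDIT4 had the largest difference. It was at 25.7, 25.9 and 29.4 CPM in intact and 4.94, 3.28 and 5.81 CPM in deleted cells, 5.76-fold lower (log2 difference -2.53, SE 0.21, adjusted p = 1.04e-06 by edgeR). NUPR1 was higher, at 0.889, 1.12 and 0.895 CPM against 2.52, 1.86 and 2.75 (log2 difference 1.30, adjusted p = 0.000922). DDIT3 was 1.92-fold higher (adjusted p = 9.97e-05), PPP1R15A 1.48-fold (adjusted p = 0.000518) and CEBPG, a bZIP partner of ATF4, 1.51-fold (adjusted p = 0.00063), with no overlap in any of these genes. CHAC1, which degrades glutathione, was 2.4-fold higher (adjusted p = 0.0118) at 0.903 to 4.44 CPM, a call lost without replicate 2 of intact DMSO or replicate 1 of deleted DMSO. TRIB3 was higher at 0.74, kept under 10 of 21 alternatives and lost on leaving out 8 of the 12 libraries in turn. XPOT was higher at 0.47 (adjusted p = 0.0118 by edgeR), and at 0.29 without the 2 libraries of highest mitochondrial share. It lost its call without replicate 2 of intact DMSO (adjusted p = 0.0506). SLC7A5 and MTHFD2 were lower, at -0.59 and -0.35, and the latter lost its call without replicate 3 of either group. PSAT1, the most abundant metabolic gene per kilobase, did not differ beyond its spread, at -0.01 (SE 0.10). ATF4 was at -0.24 (adjusted p = 0.0549), and past the threshold at the same size without the 2 libraries of highest mitochondrial share (adjusted p = 0.0406).

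The sensors were higher in deleted cells, ERN1 by 0.75 (adjusted p = 0.000245), EIF2AK3 by 0.48 (adjusted p = 0.0025) and ATF6 by 0.44 on the log2 scale (adjusted p = 0.00575 by edgeR). XBP1 was lower, at 107, 108 and 111 CPM in intact and 79.5, 76.9 and 76.6 in deleted cells (log2 difference -0.48, SE 0.09, adjusted p = 0.00078). In the chaperone arm SDF2L1, a co-factor of BiP, was 2.24-fold lower, with 25.8, 22 and 24.6 CPM against 11.3, 8.99 and 12.1 (adjusted p = 0.00126). CRELD2 (-0.61), HERPUD1 (-0.48), CALR (-0.44), PDIA4 and PDIA6 (both -0.36) were lower as well. HSPA5 was at -0.04 (SE 0.07, adjusted p = 0.725) and HSP90B1 at 0.13, and both overlapped between the genotypes. DNAJB9 was higher at 0.41, a call lost without replicate 2 or 3 of intact DMSO. HYOU1 was higher at 0.20, kept under 4 of 21 alternatives and lost on leaving out 10 of the 12 libraries in turn.

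On chromosome 22 lie 4 of these genes, ATF4, SDF2L1, CRELD2 and XBP1, and that chromosome was lower as a whole in deleted cells. Over 539 tested genes of chromosome 22 the median log2 difference in DMSO was -0.45, and 37.1% were lower, against 0.05 and 15.6% over the genes of all other chromosomes. In doxorubicin the median was -0.29, with 35.3% lower against 21.5%. Beside the median of -0.45 in DMSO, the difference was smaller for ATF4 (-0.24), close for XBP1 (-0.48) and larger for CRELD2 (-0.61) and SDF2L1 (-1.16). The part of the chromosome in these values was not tested.

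The fourth comparison set deleted cells in 1 µM against intact cells in 170 nM doxorubicin, where genotype and dose cannot be told apart. Of the 37, 9 were higher and 19 lower in deleted cells, 75.7% against a background of 47.8% (25.9% higher and 21.9% lower). The libraries did not overlap for 11 higher and 19 lower genes, against 31.4% and 25.6% of all genes. In the chaperone arm 10 of 14 were lower and 1, DNAJB9, was higher, and the median was -0.48 against 0.02 over all genes tested. All 7 genes with the first ER stress element were lower, from -0.74 for XBP1 to -0.36 for CANX, where CANX lost its call without replicate 3 of intact doxorubicin (adjusted p = 0.076 by edgeR) and CRELD2 with library totals as the scaling (adjusted p = 0.0512). The median of these 7, which include the transducer XBP1, was -0.53. Of the 8 chaperone arm genes without the element 4 were lower and 1 higher, with a median of -0.32. XBP1 and CRELD2 lie on chromosome 22, with the lower levels given above. HERPUD1 was 2.11-fold lower, at 29.5, 36.1 and 30.7 CPM against 15.3, 15.7 and 14.6 (adjusted p = 1.78e-06 by edgeR). NUPR1 was at 0.441, 0.36 and 0.757 CPM in intact and 5.3, 6.03 and 5.86 in deleted cells, 10.9-fold higher (adjusted p = 1.35e-07). ERN1 was 5.41-fold and DDIT3 4.14-fold higher (adjusted p = 3.02e-09 and 4.28e-08 by edgeR). Of the 9 regulators and feedback genes 7 were higher and 2, ATF4 and DDIT4, lower.

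The difference of the doxorubicin effects, deleted less intact, was tested as an interaction, which again holds both genotype and dose. It passed for 14 of the 37 genes, 6 higher and 8 lower, 37.8% against a background of 17.0% (10.3% higher and 6.74% lower). NUPR1 differed most, at 2.15 (SE 0.34, adjusted p = 0.000638), followed by ERN1 at 1.69 (SE 0.16, adjusted p = 9.29e-06) and DDIT4 at 1.5 (SE 0.28, adjusted p = 0.00208 by edgeR). On the lower side were VLDLR (-1.10), XPOT (-0.89), PSAT1 (-0.82) and STC2 (-0.74). In the chaperone arm 3 genes passed, HSP90B1 (-0.62), HERPUD1 (-0.60) and HSPA5 (-0.54), and without replicate 2 of intact doxorubicin 5 did. Without that library 2406 of 22707 genes were higher and 2190 lower, against 2235 and 1470 of 21803 with it. The comparisons above share control libraries and are not independent of each other.

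Neighbouring pathways were described in deleted cells under 1 µM doxorubicin, from lists made with earlier results known, beside the 30.7% of all genes that passed. Of 9 further ATF and CREB3 factors and their proteases, 2 rose and 2 fell (44.4%). ATF3, a stress-induced repressor downstream of ATF4 and of other pathways, was at 10.2, 8.08 and 9.27 CPM in deleted DMSO and 157 in each of the 3 deleted doxorubicin libraries. It rose 17.1-fold (log2 change 4.10, SE 0.11, adjusted p = 6.6e-11 by edgeR) and stayed at 8.19, 9.23 and 8.52 CPM in intact doxorubicin. CREB3L1, an ER-anchored factor of secretory cells, fell by 1.17 (adjusted p = 7.32e-07).

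Among 12 aminoacyl-tRNA synthetases, which charge tRNAs and are frequent ATF4 targets, 8 fell and 1 rose (75.0%). EPRS1 fell from 337, 349.5 and 306 CPM to 195, 183 and 187 (log2 change -0.81, adjusted p = 3.38e-06 by edgeR) and WARS1 by 0.78 (adjusted p = 9.35e-06). Of 16 further amino acid and one-carbon genes 7 fell and 2 rose (56.2%). MTHFD1L, a mitochondrial folate enzyme, fell by 0.83, while SESN2, a leucine sensor induced by several stresses, rose from 17.9, 11.8 and 17.5 CPM to 69.7, 65.2 and 68.7 (log2 change 2.11, adjusted p = 2.07e-07 by edgeR).

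The cytosolic heat shock genes fell in 7 of 10 cases and rose in 1. HSPA8, the constitutive HSP70, was at 1970.4, 2637 and 2076 CPM and then at 1067, 1126 and 1087 (log2 change -1.03, adjusted p = 5.86e-06). HSPA1B fell by 0.69, but shares reads with its near-identical copy HSPA1A and is uncertain. Of 7 mitochondrial stress genes 3 fell (42.9%), among them the chaperonins HSPD1 (-0.59) and HSPE1 (-0.80). Of 13 genes of ER-associated degradation 2 rose and 1 fell, a share of 23.1% where 30.7% of all genes passed. EDEM1, which extracts misfolded glycoproteins and is known as a target of XBP1, rose from 144, 127 and 138 CPM to 250.5, 228 and 243 (log2 change 0.82, adjusted p = 8.34e-06 by edgeR), and OS9, a lectin, rose by 0.34 (adjusted p = 0.00195). Of 15 further ER folding and trafficking genes 4 fell and 1 rose, with TXNDC5 at -0.92 and SEC24D at -0.41, a share of 33.3% and so near the 30.7% of all genes. Of 10 other eIF2 kinases and eIF2B or phosphatase subunits 2 rose and 1 fell, again a share near that background, and the risers were GCN2 (EIF2AK4, 0.38, adjusted p = 0.00126) and EIF2B5 (0.23, adjusted p = 0.0463).

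**Figure D5:**
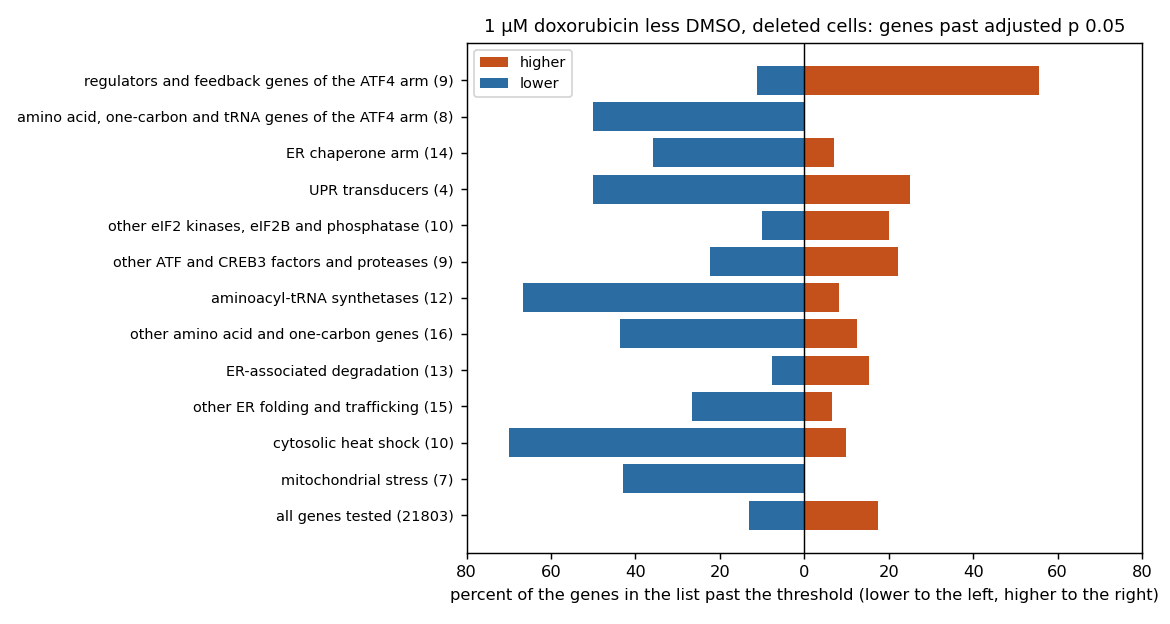
Percent of each gene list that passed an adjusted p of 0.05 in deleted cells, 1 µM doxorubicin less DMSO; bars to the right are higher, to the left lower (x axis), list sizes in brackets. The list of ATF4 arm regulators leans to higher and those of tRNA synthetases and heat shock genes to lower, beside 17.5% higher and 13.1% lower over all genes tested.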

How the data were processed

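Raw counts, 1 column per library, were deposited by the authors, who used STAR 2.7.9a on hg38 and featureCounts of Subread 2.0.1, per the submitters' processing notes. For annotation release and strand, the setting is not given in the sources used here. A filter (filterByExpr) left 21803 genes, library sizes were scaled with TMM, and 4 groups of 3 libraries entered a single quasi-likelihood model (edgeR 4.0.16, R 4.3.3), with Benjamini-Hochberg adjustment and a threshold of 0.05, after a check on simulated counts. SE is the log2 change divided by the root of F. CPM use the scaled library sizes; positions come from GENCODE 29 (hg38) and promoters from RefSeq. Pairs of libraries within a group differed by more than sampling noise (chi-square per degree of freedom 7.72 to 180). Named genes were ATF4, DDIT3, XBP1, HSPA5 and the sensors, the 5 lowest p-values and the most abundant gene not past the threshold per arm and comparison, and 2 genes per neighbouring list; others are named with their value. CEBPB, TRIB3, PHGDH and further genes outside that rule were chosen after their values were seen. DDIT4 and NUPR1 met the rule in DMSO and in the interaction. In comparisons where they did not meet it, such as deleted cells under doxorubicin, they too were chosen after their values were seen. Members, lists and roles were chosen with earlier results of these data known. Protein sequences were not analysed here. Alternatives are other scalings and filters, DESeq2 1.42.0, a replicate block, removal of the GC trend (loess, span 0.5), fits of only the groups compared, and leaving out libraries.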

Additional observations from a re-analysis of the deposited data

Results flagged for a closer look

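For 14 of the 37 genes the doxorubicin effect differed between deleted cells in 1 µM and intact cells in 170 nM by the interaction test (edgeR, adjusted over 21803 genes), so that genotype and dose cannot be told apart. The difference on the log2 scale was positive for NUPR1 (2.15), ERN1 (1.69), DDIT4 (1.5), DDIT3 (1.11), CEBPB (1.03) and PPP1R15A (0.71). It was negative for VLDLR (-1.10), XPOT (-0.89), PSAT1 (-0.82), STC2 (-0.74), ATF6 (-0.64), HSP90B1 (-0.62), HERPUD1 (-0.60) and HSPA5 (-0.54). Groups of 3 libraries were not searched for single outlying values.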

How the results depend on the processing

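Of the calls, 16 of 22 genes in DMSO, 16 of 21 in deleted cells under doxorubicin, 23 of 28 between the treated genotypes and 11 of 14 of the interaction were kept under all alternatives run. In intact cells 0 ATF4 arm genes and 0 transducers passed, but DESeq2 called 2 ATF4 arm genes, and removal of the GC trend 1 ATF4 arm gene and 1 transducer. With the GC trend removed, 4 transducers passed between the treated genotypes, against 2, and 6 chaperone arm genes in the interaction, against 3. DESeq2 also gave 6, and leaving out each library 2 to 5. Over all 21803 genes, calls between the treated genotypes were 6107 higher and 5681 lower with the GC trend removed, against 5655 and 4766. Interaction calls over all genes were 2693 higher and 1927 lower by DESeq2, against 2235 and 1470. The ATF4 arm less the chaperone arm in deleted doxorubicin was 0.50 with a pseudocount of 0.5 CPM and 0.47 with 1. For PPP1R15A the interaction was lost with the GC trend removed (adjusted p = 0.155), CEBPB kept it under 15 of 20 alternatives (lost without replicate 3 of intact DMSO, replicate 1 or 3 of intact or replicate 1 of deleted doxorubicin) and HERPUD1 under 18 of 20 (lost without replicate 2 of intact DMSO). The causes were not tested.

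Signs near 0 turned in intact cells, with no call in any fit. ATF4 was at 0.00, at 0.07 with the GC trend removed, at 0.04 without the 2 libraries of highest mitochondrial share and at -0.10 to 0.05 leaving out each library. HSPA5 was at 0.00, at -0.07 with library totals as the scaling, -0.03 with no filter, -0.04 with a 1 CPM filter, -0.01 with the GC trend removed, -0.02 with only the groups compared, 0.00 with RLE factors or DESeq2, and -0.03 to 0.04 leaving out each library. XBP1 was at -0.04, at 0.03 without those 2 libraries and at -0.13 to 0.02 leaving out each; DDIT3 was at 0.10, and -0.04 to 0.24 leaving out each. Library totals moved the median interaction over all genes from -0.03 to 0.08 and its calls from 2235 higher and 1470 lower to 2538 and 1020; with the GC trend removed they were 2742 and 2656. Over all genes in intact cells DESeq2 called 253 higher and 214 lower and the GC fit 336 and 171, against 6 and 7.

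Samples of the same replicate number did not visibly deviate together (correlations of -0.186 to 0.109). Replicate 2 of deleted DMSO and replicate 1 of intact doxorubicin, which share a GC trend, correlated at 0.328. Deviations within a group sum to 0 and several ran with GC content, so pairing by number was not seen but could be masked. With the replicate block, 9 ATF4 arm genes passed in deleted cells under doxorubicin, against 12, and 5 chaperone arm genes, against 6. ATF4, PHGDH, SHMT2 and SEL1L lost that call. Over all 21803 genes 3473 were higher and 2423 lower with the block, against 3822 and 2862. Depth limits ASNS, NUPR1, CHAC1 and VLDLR most, the genes with the fewest counts.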
